A study of Homo sapiens with 6 samples.

Results

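The cyclin D, CDK4/6, RB and MYC genes are the core of the control that decides whether a cell leaves G1, and 10 of them were taken by symbol from the count table: CCND1, CCND2, CCND3, CDK4, CDK6, RB1, RBL1, CDKN1B, CDKN2C and MYC. All 10 were among the 59715 gene IDs of the table, and 9 of them were among the 14543 genes with enough counts to be tested. CCND2 was not. RNA had been sequenced from 3 libraries of MLL4KO HCT116 cells and 3 libraries of MLL4WT HCT116 cells, both grown in DMEM with serum and with no treatment named. HCT116 is an established human colorectal carcinoma line, and MLL4 is a histone H3K4 methyltransferase that acts mainly at enhancers. Neither the number of knockout clones nor the part of the gene removed is labelled. Since separate cultures are not named either, the p-values measure the spread between these libraries, which may be technical.

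D-type cyclins bind and activate CDK4 and CDK6, and these kinases phosphorylate the retinoblastoma protein RB1 and its relatives, the pocket proteins. Unphosphorylated pocket proteins hold E2F transcription factors in check, and their phosphorylation lets E2F-driven genes of S phase be transcribed. CDKN2C (p18) blocks CDK4 and CDK6, while CDKN1B (p27) mainly blocks CDK2 and is itself held by cyclin D complexes. MYC, a transcription factor that drives growth, binds E-box sequences with its partner MAX. In colorectal carcinoma cells CCND1 and MYC are known as genes downstream of WNT and growth factor signalling.

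Library totals ranged from 14775580 to 19736751 counts in MLL4KO and from 6829400 to 17828774 in MLL4WT, where the shallowest, MLL4WT replicate 1, stood apart from the other libraries on the second principal component (17.4% of the variance). Epithelial markers EPCAM, KRT8, KRT18, KRT19, CDX2 and CDH1 were above 5 CPM in all 6 libraries, while VIL1 and LGALS4, also markers of intestinal epithelium, were at or near 0. The 8 epithelial markers summed to between 1080 and 1100 CPM in MLL4KO and between 1610 and 1670 CPM in MLL4WT. Among them EPCAM, KRT8, KRT18 and KRT19 fell (edgeR adjusted p = 3.77e-06, 1.35e-07, 1.56e-07 and 0.000334). CDX2 and CDH1 did not pass the test (edgeR adjusted p = 0.341 and 0.864). Markers of immune, endothelial, fibroblast and liver cells, 10 in all, summed to between 36.6 and 40.4 CPM in MLL4KO and between 28.4 and 34.3 CPM in MLL4WT. CPM here are counts scaled to a common library size with TMM factors. Of those 10 markers, COL1A1 gave most of the sum, at 27.3 ± 1.89 CPM in MLL4KO and 22.4 ± 0.677 CPM in MLL4WT (SD, n = 3 each), and rose (edgeR adjusted p = 0.0106), as did PDGFRB, a marker of fibroblasts and pericytes, at 4.57 ± 0.278 CPM in MLL4KO and 2.76 ± 0.848 CPM in MLL4WT (edgeR adjusted p = 0.0229). The endothelial markers VWF (2.19 ± 0.400 CPM in MLL4KO and 1.30 ± 0.313 CPM in MLL4WT, edgeR adjusted p = 0.0588) and PECAM1 (0.971 ± 0.168 CPM in MLL4KO and 0.584 ± 0.145 CPM in MLL4WT, edgeR adjusted p = 0.110) were detected at low levels and did not pass the test, and CDH5, also endothelial, was near 0. The immune marker CD68 (2.57 ± 0.829 CPM in MLL4KO and 3.7 ± 2.03 CPM in MLL4WT, edgeR adjusted p = 0.22) did not pass the test. COL1A2, also of fibroblasts, did not pass either (0.681 ± 0.333 CPM in MLL4KO and 0.808 ± 0.671 CPM in MLL4WT, edgeR adjusted p = 0.798). The means of CD68 and COL1A2 were lower in MLL4KO. CD3E of T cells and ALB of liver were at or near 0. The part of these marker differences in the results was not tested. KMT2D, the gene usually meant by MLL4, was at 230, 243 and 225 CPM in MLL4KO and 240, 231 and 234 CPM in MLL4WT (edgeR adjusted p = 0.832). A small deletion need not lower such a gene-wide count, so this does not check the label.

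The question put to these genes was how the G1 machinery differs between cells labelled MLL4KO and MLL4WT. Both D cyclin genes that the cells express and the kinase gene CDK4 were lower in MLL4KO cells, CCND1 and CCND3 by the same 1.41-fold, while the inhibitor gene CDKN1B and the pocket protein gene RBL1 were higher. MYC, CDK6, RB1 and CDKN2C did not pass the test. By the edgeR quasi-likelihood test, with genes called at an adjusted p under 0.05, 2 of the 9 tested members rose and 3 fell, where 19.8% of all tested genes rose and 21.6% fell (41.4% called in all). Many genes were called in this comparison, so the count is not read as particular to the members, and the genes are described singly. The split over all genes, 2885 that rose and 3136 that fell, was 3706 and 2394 with total counts alone, 3561 and 2475 with upper quartile factors, and 2252 and 4307 after removal of trends with GC content and length. The median log2 fold change over all genes was -0.0044, and under these settings 0.058, 0.0498 and -0.0651. The groups did not overlap in the 5 called members, nor in 52.5% of all tested genes, where MLL4KO was the higher group in 25.9% and the lower in 26.6%.

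**Figure D1:**
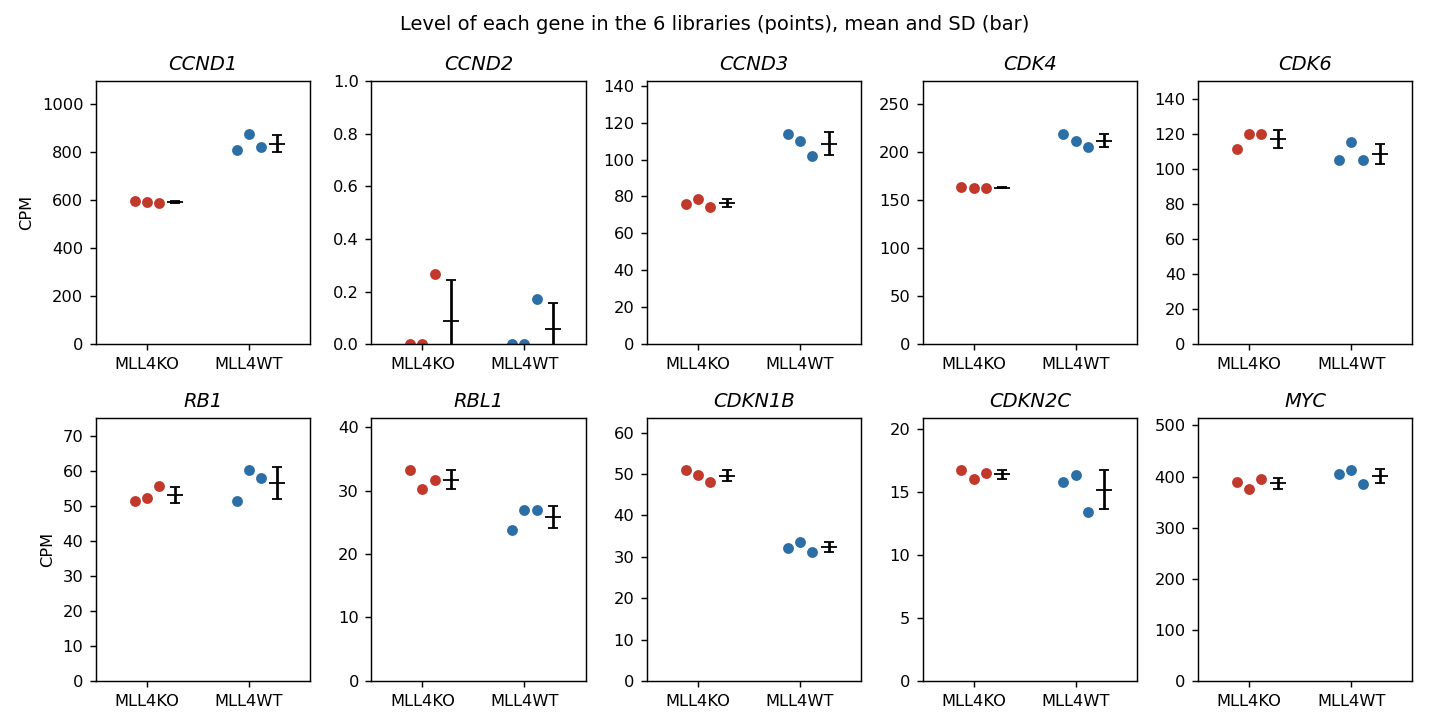
Level of each of the 10 genes in CPM (vertical axes, from 0, a scale per gene) in the 3 MLL4KO libraries (red) and the 3 MLL4WT libraries (blue), with the mean and SD as a black bar. CCND1, CCND3 and CDK4 are lower and RBL1 and CDKN1B higher in all 3 MLL4KO libraries than in any MLL4WT library, and the other 5 panels overlap.

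Promoter windows from RefSeq on GRCh38.p14 ran from 250 bases before to 50 bases after a transcription start. For 7 of the 10 genes such windows were used, 12 in all. None was used for CCND1, CCND2 or MYC, which does not show that these genes lack a window. The windows of CDK4, CDKN1B and RBL1 are shown because these are the called members with a single window each. They also carry the binding letters of MYC and E2F to a different extent. The windows lie at chr12:57752261-57752560 on the minus strand for CDK4, chr12:12717118-12717417 on the plus strand for CDKN1B and chr20:37095948-37096247 on the minus strand for RBL1, and are written 5′ to 3′ along the gene. Capitals mark E-boxes (CACGTG) and E2F sites (any of TTTCCCGC, TTTGGCGC, TTTCGCGC and TTTGCCGC), searched on both strands.
CDK4: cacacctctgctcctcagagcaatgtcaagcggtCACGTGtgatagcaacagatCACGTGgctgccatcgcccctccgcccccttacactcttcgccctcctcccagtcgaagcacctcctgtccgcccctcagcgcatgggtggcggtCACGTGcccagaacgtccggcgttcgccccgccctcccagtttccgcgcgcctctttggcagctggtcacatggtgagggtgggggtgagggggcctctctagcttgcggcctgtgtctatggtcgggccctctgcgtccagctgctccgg
CDKN1B: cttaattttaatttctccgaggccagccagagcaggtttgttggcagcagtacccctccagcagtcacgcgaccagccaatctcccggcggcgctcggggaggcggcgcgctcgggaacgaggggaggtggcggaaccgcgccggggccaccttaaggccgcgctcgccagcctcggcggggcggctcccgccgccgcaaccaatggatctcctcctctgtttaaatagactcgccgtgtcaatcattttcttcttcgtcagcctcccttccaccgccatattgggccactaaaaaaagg
RBL1: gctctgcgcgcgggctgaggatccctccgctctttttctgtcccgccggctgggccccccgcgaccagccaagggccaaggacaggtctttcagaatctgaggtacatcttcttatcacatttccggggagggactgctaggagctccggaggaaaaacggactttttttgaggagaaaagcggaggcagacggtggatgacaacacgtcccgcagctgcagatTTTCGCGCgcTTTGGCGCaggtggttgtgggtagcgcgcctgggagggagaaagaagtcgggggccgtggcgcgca
The CDK4 window held 3 E-boxes, beginning 216, 196 and 101 bases before the start, and no E2F site. The RBL1 window held 2 E2F sites, beginning 26 and 16 bases before the start, and no E-box. The CDKN1B window held neither. Of 35116 RefSeq windows of the same length, 7.26% held an E-box and 3.31% an E2F site of these letters. A match describes the letters of a window and does not show that a factor binds there. The CDK4 and CDKN1B windows lie inside the annotated genes, downstream of the outermost starts at 57756013 for CDK4 and 12715058 for CDKN1B, while the RBL1 window spans the annotated start. The RB1 window, at chr13:48476200-48476499, likewise lies far inside its gene, and with the 3 windows of CCND3 it held no match to either motif. An E-box lay in 1 of the 2 windows of CDK6 and in 2 of the 3 windows of CDKN2C.

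CCND1, the cyclin D1 gene (chromosome 11, 69641087 to 69654474), was the most abundant of the 10 genes in counts. It was at 596, 593 and 589 CPM in MLL4KO replicates 1 to 3 and at 806, 876 and 822 CPM in MLL4WT replicates 1 to 3. The 3 MLL4KO libraries were almost level with each other and all lay well under the lowest MLL4WT library. CCND1 fell 1.41-fold (log2 fold change -0.49 ± 0.05 SE, edgeR adjusted p = 5.28e-06). Its exons share 497 of 4830 bases with LTO1 on the opposite strand, which had 1417 counts over the 6 libraries where CCND1 had 62978.

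CCND3, the cyclin D3 gene (chromosome 6, 41934933 to 42050357), was at 76.1, 78.8 and 74.5 CPM in MLL4KO and at 114, 110 and 102 CPM in MLL4WT. Again every MLL4KO library was under every MLL4WT library. CCND3 fell 1.41-fold (log2 -0.50 ± 0.05, edgeR adjusted p = 2.17e-05). The ratio of CCND3 to CCND1 per kilobase of exon was 0.107 ± 0.00286 in MLL4KO and 0.108 ± 0.00808 in MLL4WT (SD, n = 3 each, exact permutation test over libraries, two-sided, p = 1). The log2 difference of that ratio was -0.01, and it lay between -0.05 and 0.05 when each library was left out in turn.

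CCND2, the cyclin D2 gene (chromosome 12, 4273772 to 4305350), was all but absent from both genotypes. It had 0, 0 and 4 counts in MLL4KO replicates 1 to 3 and 0, 0 and 3 counts in MLL4WT replicates 1 to 3. In the shallowest library 3 counts correspond to 0.446 CPM, so a lower level was not detectable there, and this limit covers counting error only. The D cyclin RNA of these cells was thus nearly all from CCND1 and CCND3. CCND1 held 90.4%, 90.0% and 90.4% of the summed level per kilobase of merged exon in MLL4KO and 89.5%, 90.6% and 90.6% in MLL4WT. With the length of the longest annotated transcript, which is much shorter than the merged exons for CCND3, its share was between 80.7% and 81.4% in MLL4KO and between 79.7% and 81.8% in MLL4WT. On either length the make-up overlapped between the genotypes, while the sum of the D cyclins was 137, 136 and 135 CPM per kilobase in MLL4KO and 187, 200 and 188 in MLL4WT.

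CDK4, one of the kinase genes partnered by the D cyclins (chromosome 12, 57747727 to 57756013), was at 164, 162 and 163 CPM in MLL4KO and at 219, 211 and 205 CPM in MLL4WT. The groups did not overlap, and CDK4 fell 1.29-fold (log2 -0.37 ± 0.04, edgeR adjusted p = 3.89e-05). Its exons share 1369 of 3168 bases with TSPAN31 on the opposite strand. The labels do not say whether the kit keeps strand, and reads of such overlaps cannot then be told apart. TSPAN31 had 782 counts over the 6 libraries where CDK4 had 16509.

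CDK6, the other D cyclin kinase gene (chromosome 7, 92604921 to 92836594), was at 111, 120 and 120 CPM in MLL4KO and at 105, 115 and 105 CPM in MLL4WT. The groups overlapped, and CDK6 did not pass the test (log2 0.10 ± 0.06, 95% interval -0.02 to 0.22, edgeR adjusted p = 0.168). It was called as higher with total counts alone (log2 0.16, adjusted p = 0.0292) and with upper quartile factors (0.15, adjusted p = 0.0358), and its sign turned after removal of trends with GC content and length (-0.10, adjusted p = 0.121). That last setting also lowered nearly all genes by its doubled scaling. The ratio of CDK6 to CDK4 per kilobase was 0.174, 0.191 and 0.189 in MLL4KO and 0.124, 0.141 and 0.133 in MLL4WT. It was higher in all 3 MLL4KO libraries, 1.39-fold on average, with an exact two-sided permutation p = 0.1. That is the smallest p that 3 libraries against 3 allow, and it became 0.15 after adjustment over the 3 ratios compared. With GC and length trends removed, CDK6 was at a log2 of -0.10 and CDK4 at -0.34, against 0.10 and -0.37. The gap between the 2 genes was then smaller. CDK4 remained the larger part of the kinase pair, at 84.0% to 85.2% of the sum per kilobase in MLL4KO and 87.6% to 89.0% in MLL4WT.

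CDKN1B, which encodes the inhibitor p27 (chromosome 12, 12715058 to 12722371), showed the largest change of the 9 tested members. It was at 50.9, 49.9 and 48.1 CPM in MLL4KO and at 32.1, 33.7 and 31.2 CPM in MLL4WT. All 3 MLL4KO libraries stood far above the MLL4WT libraries, and CDKN1B rose 1.53-fold (log2 0.62 ± 0.06, edgeR adjusted p = 1.14e-05). Of all tested genes, 6.56% rose and 5.35% fell by 1.5-fold or more.

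CDKN2C, which encodes the INK4 inhibitor p18 (chromosome 1, 50960745 to 50974633), was at 16.7, 16.0 and 16.5 CPM in MLL4KO and at 15.8, 16.3 and 13.4 CPM in MLL4WT. Its groups overlapped and it did not pass the test (log2 0.13 ± 0.10, 95% interval -0.08 to 0.34, edgeR adjusted p = 0.317).

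RB1, the retinoblastoma gene (chromosome 13, 48303726 to 48599436), was at 51.5, 52.3 and 55.7 CPM in MLL4KO and at 51.3, 60.2 and 58.1 CPM in MLL4WT. The groups overlapped through MLL4WT replicate 1, and RB1 did not pass the test (log2 -0.10 ± 0.07, 95% interval -0.25 to 0.04, edgeR adjusted p = 0.235). Without MLL4WT replicate 1 it was called as lower (log2 -0.15, adjusted p = 0.0224), and likewise with a term for the run code in the column names (-0.16, adjusted p = 0.00884) and after removal of the GC and length trends (-0.28, adjusted p = 0.000959). Part of the last value is the doubled scaling of that setting.

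RBL1, which encodes the pocket protein p107 (chromosome 20, 36996349 to 37095995), was at 33.2, 30.3 and 31.7 CPM in MLL4KO and at 23.8, 26.9 and 26.9 CPM in MLL4WT. The groups did not overlap, and RBL1 rose 1.22-fold (log2 0.28 ± 0.07, edgeR adjusted p = 0.00868). After removal of the GC and length trends, which also lowered nearly all genes by doubled scaling, it no longer passed (log2 0.13, adjusted p = 0.140). The ratio of RBL1 to RB1 per kilobase was 0.648 ± 0.0444 in MLL4KO and 0.496 ± 0.0106 in MLL4WT (SD, n = 3 each), 1.30-fold higher in MLL4KO with an exact two-sided permutation p = 0.1, adjusted to 0.15. RBL2, the gene of the third pocket protein p130 and not one of the 10, was at 46.3 ± 0.765 CPM in MLL4KO and 36.7 ± 3.23 CPM in MLL4WT (SD, n = 3 each) and rose 1.25-fold (edgeR adjusted p = 0.00283). It no longer passed in the fit with both a replicate block and the GC and length trends removed (adjusted p = 0.0589).

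MYC (chromosome 8, 127735434 to 127741434) was at 389, 375 and 396 CPM in MLL4KO and at 404, 412 and 385 CPM in MLL4WT. The groups overlapped. MYC did not pass the test (log2 -0.05 ± 0.04, 95% interval -0.15 to 0.05, edgeR adjusted p = 0.410), and its sign turned with total counts alone (0.01). PVT1, the long noncoding RNA gene next to MYC on its far side, was at 28.4 ± 0.347 CPM in MLL4KO and 30.8 ± 0.850 CPM in MLL4WT (SD, n = 3 each) and did not pass the test either (edgeR adjusted p = 0.144), although it was called as lower after removal of the GC and length trends (log2 -0.17, adjusted p = 0.0361). CASC8, a long noncoding RNA gene and the nearest tested gene with a symbol on the other side, fell to 0.746, 0.986 and 0.864 CPM in MLL4KO, against 3.57, 2.26 and 3.96 CPM in MLL4WT (log2 -1.91 ± 0.30, edgeR adjusted p = 0.000301). Of the 20 tested genes nearest to MYC, 10 on each side, 5 rose and 2 fell, where 19.8% of all tested genes rose and 21.6% fell.

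**Figure D2:**
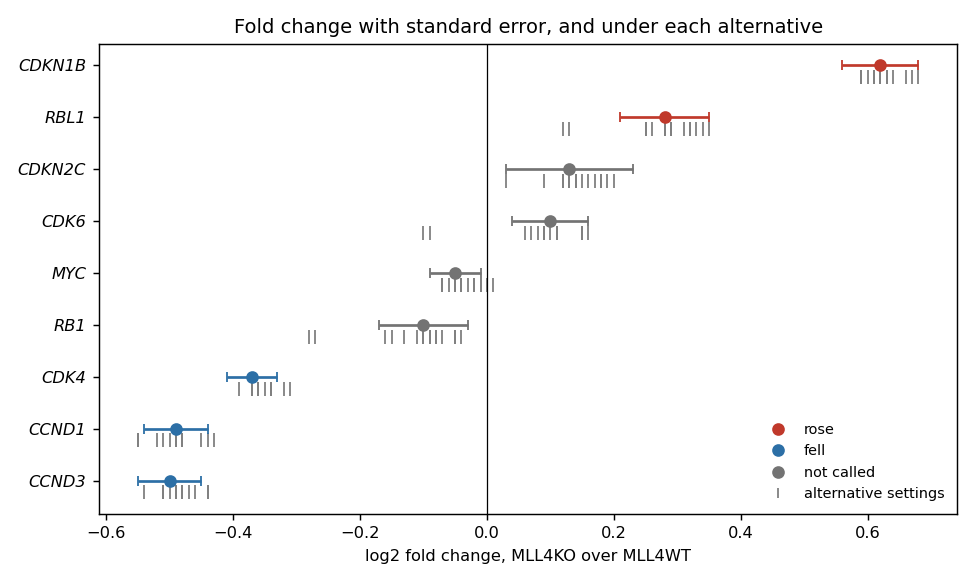
Log2 fold change of MLL4KO over MLL4WT (horizontal axis) of the 9 tested genes, with the standard error as a bar (red rose, blue fell, grey not called) and grey ticks for the 18 alternative settings. CDKN1B stays between 0.59 and 0.68, CCND1 between -0.55 and -0.43 and CCND3 between -0.54 and -0.44, while the ticks of CDK6 and MYC reach both sides of 0.

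The levels of the 10 genes spanned a wide range on the scale of CPM per kilobase of merged exon. In MLL4KO the order was MYC (129 ± 3.54), CCND1 (123 ± 0.767), CDK4 (51.5 ± 0.429), CDKN1B (17.7 ± 0.495), CCND3 (13.2 ± 0.374), CDK6 (9.53 ± 0.413), RB1 (8.24 ± 0.344), RBL1 (5.33 ± 0.244), CDKN2C (4.94 ± 0.0998) and CCND2 (SD, n = 3). In MLL4WT it was CCND1 (173 ± 7.58), MYC (133 ± 4.60), CDK4 (66.8 ± 2.13), CCND3 (18.7 ± 1.06), CDKN1B (11.5 ± 0.452), CDK6 (8.86 ± 0.477), RB1 (8.76 ± 0.725), CDKN2C (4.57 ± 0.470), RBL1 (4.34 ± 0.301) and CCND2 (SD, n = 3). CCND1 and MYC thus stood in opposite order in the genotypes, and so did CDKN1B and CCND3. CDK6 and RB1 in MLL4WT, and CDKN2C and RBL1 in MLL4WT, lay within their spread of each other. The place of CCND3 rests on the length used, since by its longest transcript it was at 31.9 ± 0.907 in MLL4KO and 45.3 ± 2.58 in MLL4WT, above CDKN1B in both, and CDK6 and RB1 then changed places in both genotypes, as did RBL1 and CDKN2C in MLL4KO.

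**Figure D3:**
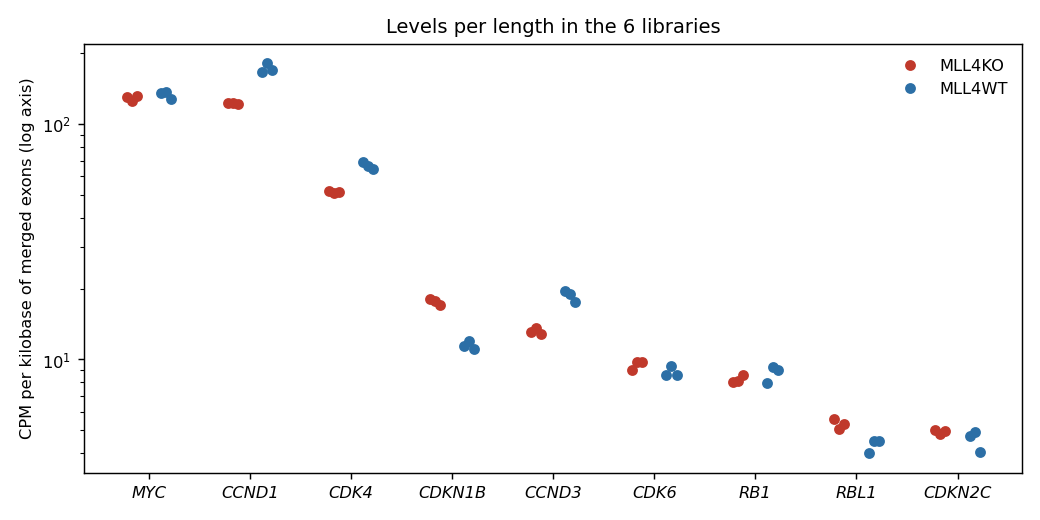
Level in CPM per kilobase of merged exon (vertical axis, log scale) of the 9 tested genes in the 3 MLL4KO libraries (red, left of each pair) and the 3 MLL4WT libraries (blue, right). CCND1 lies under MYC in MLL4KO and over it in MLL4WT, and CDKN1B and CCND3 also stand in opposite order.

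Among the 20 genes of cyclin E, CDK2, other CDK inhibitors and cyclin turnover, all of which were tested, 4 rose and 5 fell, and 11 were not called, where 19.8% of all tested genes rose and 21.6% fell. The genes of the list had a median log2 fold change of -0.07, against -0.0044 over all tested genes. This list and the others below were chosen with earlier results of these data known, so their shares are descriptions and not tests. The number that fell was 2 without MLL4KO replicate 1 or without MLL4WT replicate 2, 3 without MLL4KO replicate 2, MLL4KO replicate 3 or MLL4WT replicate 3, and 9, with 2 that rose, after removal of the GC and length trends. CDKN1C, which encodes the CIP/KIP inhibitor p57, was at 25.7, 23.6 and 22.8 CPM in MLL4KO and at 14.7, 9.81 and 10.3 CPM in MLL4WT, and rose 2.18-fold (log2 1.12 ± 0.12, edgeR adjusted p = 2.46e-05). It thus moved in the same direction as its relative CDKN1B. The third member of that family, CDKN1A (p21), was at 23.9 ± 0.834 CPM in MLL4KO and 24.3 ± 0.848 CPM in MLL4WT (edgeR adjusted p = 0.936), and the INK4 inhibitor gene CDKN2A was at 100 ± 2.08 CPM in MLL4KO and 100 ± 5.00 CPM in MLL4WT (SD, n = 3 each, edgeR adjusted p = 0.901).

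GSK3B, whose kinase marks cyclin D1 and MYC for degradation, rose 1.34-fold (edgeR adjusted p = 2.76e-05), and FBXW7, which encodes the ubiquitin ligase subunit that binds cyclin E and MYC, rose 1.19-fold (edgeR adjusted p = 0.00995). The FBXW7 call was lost under 4 of the 18 alternatives, among them removal of the GC and length trends, where its log2 fold change was 0.11 (adjusted p = 0.200) against 0.25, and the DESeq2 Wald test (adjusted p = 0.0712). CDC25A, the phosphatase gene that activates CDK2, fell 1.37-fold (edgeR adjusted p = 2.84e-05), and CKS1B, of the complex that degrades p27, fell 1.20-fold (edgeR adjusted p = 0.000871). Other genes of that complex did not follow CKS1B. SKP2 (log2 -0.09, edgeR adjusted p = 0.138) and CUL1 (log2 -0.07, edgeR adjusted p = 0.3) did not pass the test, and SKP1 rose (log2 0.16, edgeR adjusted p = 0.0195). CCNE1 (cyclin E1) was at 52.4 ± 1.72 CPM in MLL4KO and 58.7 ± 3.90 CPM in MLL4WT (SD, n = 3 each) and did not pass the test (edgeR adjusted p = 0.0684). CCNE2 (cyclin E2) fell 1.23-fold (edgeR adjusted p = 0.0113). It did not pass under 4 of the 18 alternatives, among them without MLL4KO replicate 1 (adjusted p = 0.0631) or MLL4WT replicate 2 (adjusted p = 0.0727). CDK2 fell 1.10-fold (edgeR adjusted p = 0.0392) but did not pass under 10 of the 18 alternatives, among them leaving out any library but MLL4WT replicate 1 (adjusted p between 0.0617 and 0.191).

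The E2F, DP and DREAM genes include those of transcription factors that pocket proteins bind and of the complex that RBL1 and RBL2 enter. Of these 18 genes, 4 rose and 7 fell, and 7 were not called, against 19.8% and 21.6% of all tested genes, at a median of -0.10. E2F5, an E2F that works with p130 and p107, was at 4.03, 3.33 and 4.32 CPM in MLL4KO and at 14.9, 13.2 and 14.1 CPM in MLL4WT, a fall of 3.58-fold (log2 -1.84 ± 0.13, edgeR adjusted p = 7.33e-07). E2F5 and CCNE2 lie on chromosome 8, where 13 of the 20 tested genes nearest to E2F5 fell and 1 rose, and 12 of the 20 nearest to CCNE2 fell and 0 rose. The part of these neighbourhoods in the values of the 2 genes was not tested. E2F4, another E2F of pocket protein complexes, fell 1.29-fold and E2F8, a repressor E2F, fell 1.34-fold (edgeR adjusted p = 7.8e-05 and 0.000709).

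E2F1, an activator E2F, fell 1.19-fold (edgeR adjusted p = 0.0251) but did not pass under 10 of the 18 alternatives, among them leaving out any 1 of the MLL4KO replicates or MLL4WT replicate 3 (adjusted p between 0.0707 and 0.103). DYRK1A, whose kinase assembles the DREAM complex, rose 1.49-fold (edgeR adjusted p = 1.54e-05). Of the 20 tested genes nearest to it on chromosome 21, 16 rose and 0 fell, against 19.8% and 21.6% of all tested genes. RBBP4, which encodes a histone-binding subunit of DREAM, rose 1.26-fold (edgeR adjusted p = 0.00018). Other genes of the list went both ways. LIN54 (log2 -0.23, edgeR adjusted p = 0.0126) and MYBL2 (log2 -0.14, edgeR adjusted p = 0.0332) fell, and E2F6 rose (log2 0.19, edgeR adjusted p = 0.0396). LIN9, LIN37 and LIN52 did not pass the test (edgeR adjusted p = 0.297, 0.707 and 0.107). The count of called genes in this list was 7 without any 1 of the MLL4KO replicates, against 11 with all libraries. Without MLL4WT replicate 3, and likewise with total counts alone, 6 of them rose and 3 fell.

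Of the 15 E2F-regulated S phase genes, 10 fell and 0 rose by the edgeR test, and 5 were not called, at a median of -0.17. Of all tested genes 21.6% fell and 19.8% rose. Since the list was chosen with earlier results known, its share is only a description of these genes. With total counts alone 7 fell and 1 rose. MCM5, of the replicative helicase, was at 221, 221 and 217 CPM in MLL4KO and at 318, 303 and 295 CPM in MLL4WT, and fell 1.39-fold (edgeR adjusted p = 6.44e-06). CCNA2 (cyclin A2) fell 1.35-fold and GINS2, of the helicase activator GINS, fell 1.31-fold (edgeR adjusted p = 2.14e-05 and 8.14e-05). In bulk RNA, fewer cells in S phase and less of these RNAs per cell cannot be told apart.

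Of the 19 genes of the MAX network and of MYC turnover, 18 were tested, of which 4 rose and 3 fell, and 11 were not called, at a median of 0.02. The called share was near the 41.4% of all tested genes. After removal of the GC and length trends 4 rose and 6 fell. MAX itself was at 62.4 ± 3.08 CPM in MLL4KO and 59.7 ± 3.30 CPM in MLL4WT (SD, n = 3 each, edgeR adjusted p = 0.496). MXD4, the gene of a MAX partner that opposes MYC, was at 52.8, 50.2 and 47.9 CPM in MLL4KO and at 30.8, 26.5 and 28.5 CPM in MLL4WT, and rose 1.78-fold (log2 0.83 ± 0.07, edgeR adjusted p = 3.19e-06). MXI1, of the same kind, rose by a log2 of 0.52 (edgeR adjusted p = 0.000185). MXD3, also of this kind, rose by a log2 of 0.43 (edgeR adjusted p = 0.00625). MXD1 (log2 -0.12, edgeR adjusted p = 0.510) and MNT (log2 0.04, edgeR adjusted p = 0.751), likewise of this kind, did not pass the test. MLXIPL, which encodes the glucose-responsive factor ChREBP, rose 1.47-fold and its partner gene MLX fell 1.46-fold (edgeR adjusted p = 0.00225 and 1.19e-05). PIM1, a kinase gene that cooperates with MYC, was at 11.1, 11.9 and 11.4 CPM in MLL4KO and at 21.8, 22.2 and 20.7 CPM in MLL4WT, and fell 1.88-fold (edgeR adjusted p = 5.53e-06). CIP2A, whose protein stabilises MYC, fell 1.24-fold (edgeR adjusted p = 0.000327).

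Of the 28 MYC-regulated growth genes, 12 fell and 0 rose by the edgeR test, and 16 were not called, at a median of -0.12. The called share was near the 41.4% of all tested genes, of which 21.6% fell and 19.8% rose. This list too was chosen with earlier results known, so the lack of a rise is only described. SRM, the spermidine synthase gene, was at 101 ± 1.32 CPM in MLL4KO and 194 ± 26.0 CPM in MLL4WT (SD, n = 3 each) and fell 1.91-fold (edgeR adjusted p = 1.01e-05). ODC1, the ornithine decarboxylase gene of the same polyamine pathway, fell 1.37-fold (edgeR adjusted p = 1.51e-05), and RRP9, of ribosomal RNA processing, fell 1.56-fold (edgeR adjusted p = 4.48e-06). Without MLL4WT replicate 1 the number that fell was 22, at a median of -0.22, and it was also 22 with a term for the run code, which sets that library alone, and 20 with GC and length trends removed. The last number also carries the doubled scaling of that setting. With total counts alone, 11 fell and 0 rose.

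**Figure D4:**
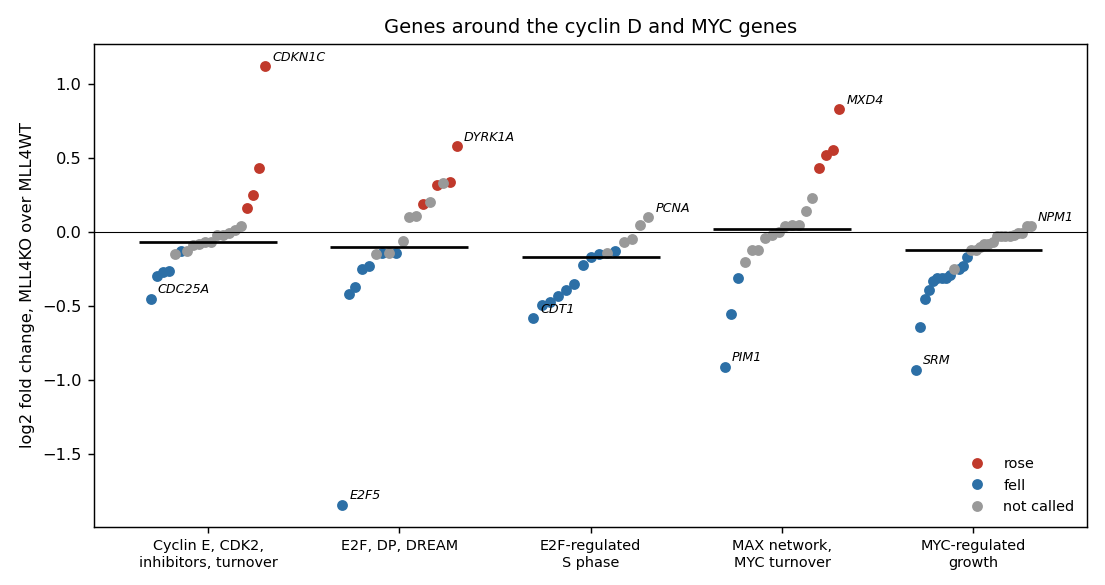
Log2 fold change of MLL4KO over MLL4WT (vertical axis) of each tested gene in 5 lists around the 10 genes, sorted within a list (red rose, blue fell, grey not called), with the list's median as a line. Neither the S phase list (10 fell) nor the MYC-regulated list (12 fell) holds a called rise, while CDKN1C (1.12) and MXD4 (0.83) are the highest points of their lists. The lists were chosen with earlier results of these data known.

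The genes whose pattern over the 6 libraries was most like a member's were found by the root-mean-square difference of log2 CPM after centring each gene, among tested genes with a symbol and a mean of at least 5 CPM. For CCND1 they were PFKP (0.0092) and NCDN (0.016), for CCND3 IMP4 (0.027) and MCM5 (0.030), and for CDKN1B SERPINE2 (0.010) and IFNAR1 (0.028). With 6 libraries in 2 genotypes this likeness mostly reflects the size of the difference between the genotypes. PFKP lies among 16 tested neighbours of which 11 fell, and IFNAR1, on chromosome 21, among 20 of which 13 rose. Over all tested genes, 21.6% fell and 19.8% rose.

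Position along the chromosome was compared for the members as well. Over all tested genes, 21.6% fell and 19.8% rose. Of the 20 tested genes nearest to each called member, 7 fell and 3 rose around CCND1, and 7 fell and 5 rose around CCND3. Around CDK4, 4 fell and 2 rose, around CDKN1B 4 fell and 6 rose, and around RBL1 7 fell and 3 rose. The median log2 fold change of these neighbours was -0.16 around CCND1, -0.19 around CCND3 and -0.13 around CDK4, and the part of the neighbourhood in the values of the members was not tested. Run codes in the column names put MLL4WT replicate 1 alone on its code, and the other codes held both genotypes. Within them, CCND1 differed by a log2 of -0.46 and -0.57, CCND3 by -0.42 and -0.52, CDK4 by -0.32 and -0.38, RBL1 by 0.30 and 0.20 and CDKN1B by 0.70 and 0.53. The first value of each pair is from 1 MLL4KO and 1 MLL4WT library. The second is from 2 MLL4KO libraries and 1 MLL4WT library, so neither is a replicated comparison.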

How the data were processed

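RNA of 3 MLL4KO and 3 MLL4WT libraries of HCT116 cells was selected for poly(A) and sequenced, per the labels' protocols. The deposited table of the authors covers 59715 Ensembl gene IDs in expected counts that were not normalised and are all whole. Per the submitters' processing notes, Salmon 1.8.0, DESeq2 1.44.0 and hg38 are listed, with their roles not stated. No source used here gives the annotation release.

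Symbols matched 55764 IDs, and GENCODE release 29 on GRCh38, the build also called hg38, gave positions and lengths for 56227. Genes were kept by filterByExpr (14543 genes), scaled by TMM and compared by the quasi-likelihood test of edgeR 4.0.16 in R 4.3.3, MLL4KO over MLL4WT, without covariates, on 4 residual degrees of freedom. Benjamini-Hochberg adjustment ran over all tested genes, and a gene rose or fell at an adjusted p under 0.05. Standard errors and 95% intervals came from the F statistic. The test was checked on simulated counts. It recovered 42% of 1.25-fold changes, 79.6% of 1.5-fold, 90% of 2-fold and 98.0% of 4-fold changes. A gene that did not pass the test may thus still differ by a small fold. Levels per kilobase used merged exon lengths.

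The members, the lists of related genes and the rule for named genes were chosen with earlier results of these data known. Named were the 10 members, KMT2D, 9 partner genes, at most 3 called genes in each direction from each of 5 lists, the 2 genes nearest in pattern to each of the 3 members that changed most, and the tested neighbours of MYC. Members that are not tested are given by counts. Trends with GC content and length were taken out of each library with lowess curves (span 0.3). The curves were fitted to CPM without TMM factors and so held the shift between libraries. TMM factors then took out that shift again. The other alternatives were other size factors, no filter, a filter at 1 CPM in 3 libraries, DESeq2 1.42.0, limma-voom (limma 3.58.1), a replicate block, a run code term, thinning to the shallowest library and leaving out each library.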

Additional observations from a re-analysis of the deposited data

How the results depend on the processing

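CCND1, CCND3, CDK4 and CDKN1B kept their direction and their call under all 18 alternatives. With GC and length trends removed 1 member rose, also with the replicate block added. The cyclin E and inhibitor list had 5 called genes by the DESeq2 Wald test, against 9. The E2F, DP and DREAM list had 7, against 11, by the DESeq2 Wald test and with both the replicate block and trends removed, and between 7 and 13 when each library was left out. The MYC-regulated growth list had 20 called genes with trends removed and 22 with the run code term, against 12, and between 11 and 22 when each library was left out. Over all genes between 2163 and 3521 rose and between 2316 and 3822 fell when each library was left out.

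Signs turned only in genes or ratios that were not called. CDK6 was at -0.10 with trends removed and -0.09 with the replicate block as well. MYC was at 0.01 with total counts and 0.00 with upper quartile factors, where KMT2D was at 0.05 and 0.04 and CDKN1A at 0.05 and 0.04. CDKN1A was also at 0.04 with trends removed, with and without the block, and at 0.01 with the run code term. Thinned, KMT2D was at 0.00 and CDKN2A at -0.02. When each library was left out, KMT2D lay between -0.04 and 0.02, CDKN1A between -0.04 and 0.01, CDKN2A between -0.01 and 0.05, and the log2 ratio of CCND3 to CCND1 between -0.05 and 0.05. The cause of these changes was not tested.

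With the replicate block alone 2689 genes rose and 3024 fell, and 2 members rose and 3 fell. Same-numbered libraries deviated from their group means with correlations of 0.0245, 0.0341 and -0.0146 across genes. Not every library correlated best with its own number. With so few libraries per group, these correlations cannot show whether same-numbered libraries were prepared together. CCND2 was left out of the main test by the filter on counts. With no filter all 10 members were measured, and again 2 rose and 3 fell.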
